A study of Mus musculus with 20 samples.

Results

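Bile acid synthesis and its feedback were followed through 10 genes in livers of phenobarbital-treated mice. The members were all probe sets of the array whose platform symbol was Cyp7a1, Cyp8b1, Cyp27a1, Cyp39a1, Hsd3b7, Slc27a5, Baat, Nr0b2, Fgfr4 or Klb, which gave 18 of 45037 probe sets and 10 of 18193 genes. All 10 genes were among the 16054 that exceeded background, taken as the 25th percentile of an array's values, on at least 5 arrays. The samples were left lateral liver lobes, taken the day after the last dose, of 20 male mice of the outbred CD1 strain, 5 in each of 4 groups. Control mice received methylcellulose 15, the vehicle, by mouth every day for 28 or 90 days (CMC 28d and CMC 90d, dose 0 mg/kg/day). Treated mice received phenobarbital sodium at 80 mg/kg/day in the same way for 28 or 90 days (PB 28d and PB 90d). No group carried an engineered allele in the labels, and the age of the mice is not given there, so duration of dosing and age cannot be told apart. Values are log2 intensities made by RMA, 1 array per mouse, and the comparisons ask whether the transcripts of this circuit differ between treated and control livers at each duration.

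Hepatocytes turn cholesterol into bile acids by a classical route that opens with Cyp7a1 and an alternative route that opens with Cyp27a1. The product of Cyp8b1 sets the share of cholic acid, and Slc27a5 and Baat join the finished bile acids to an amino acid, in mice mainly taurine. Bile acids limit their own synthesis in 2 ways: in the liver they activate the receptor FXR, which induces the repressor SHP, the product of Nr0b2. In the ileum they induce the hormone FGF15, which reaches hepatocytes through the receptor Fgfr4 and its partner Klb and lowers Cyp7a1. Phenobarbital acts through the constitutive androstane receptor, another nuclear receptor of hepatocytes.

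The labels were checked on Cyp2b10 and Cyp2c55, P450 genes raised by that receptor. Cyp2b10 lay between 4.66 and 7.78 on the 10 vehicle arrays and between 9.03 and 12.23 on the 10 treated arrays, with no overlap, and Cyp2c55 did not overlap either (5.71 to 7.15 against 11.02 to 12.09). All 9 hepatocyte markers measured exceeded background on all 20 arrays, with a summed level of 17.17 to 17.45 on vehicle and 16.90 to 17.40 on treated arrays. A pair of treated arrays stood apart on the first principal component, the axis with the largest share of variance between arrays (55.6%): PB 28d replicate 5 scored -107.9 and PB 90d replicate 3 scored -65.2, against -39.8 for the next array. Several members moved along this axis, so the main results are also given without these arrays. The pair also had the narrowest spread of intensities over all probe sets. Its 75th percentiles were 6.62 and 6.81, against 6.87 to 7.17 on the other arrays. Its 25th percentiles were 4.26 and 4.12, against 3.96 to 4.11. The cause was not tested. The summed level of 8 neutrophil markers was 8.44 to 9.0 log2 units in CMC 28d, 9.35 to 12.86 in PB 28d, 8.11 to 8.34 in CMC 90d and 8.31 to 13.25 in PB 90d. Of the 8, 7 exceeded background on all arrays and Mmp8 lay below it on most, 6 had a mean change above 0, and their median was 0.17. S100a8 alone was called (5.67 in the mean, adjusted p = 0.00067), while the other 7 lay between -0.08 for S100a9 and 0.21 for Mmp8, so the summed level followed this 1 gene. The part of neutrophils in the results was not tested. In whole tissue, fewer cells of a type and less RNA per cell cannot be told apart.

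No member was called under phenobarbital. Cyp7a1, which encodes the rate-limiting enzyme, had the largest mean difference of the 10. A gene was called when its adjusted p in limma, with Benjamini-Hochberg adjustment over all 16054 genes, was under 0.05. At 28 days 0 of 10 members were called, where 8 of all genes were (0.0498%). At 90 days 0 of 10 members were called, against 23 of all genes (0.143%), and for the mean of both durations 0 of 10 against 34 (0.212%). At an unadjusted p under 0.05 the counts of members were 0, 1 and 1 in the same order, where 2.86%, 4.53% and 6.6% of all genes reached it. The member was Cyp7a1 both times, and it was lower, as were 1.38% of all genes at 90 days and 2.37% in the mean. The groups overlapped for all 10 members at both durations, while they did not overlap for 0.542% of all genes at 28 days and 1.07% at 90 days. The members' median change was 0.02 log2 units at 28 days (5 of 10 above 0), -0.15 at 90 days (3 of 10) and -0.03 for the mean (4 of 10), beside 0.00, 0.03 and 0.02 over all genes, of which 49.6%, 56.2% and 55.8% lay above 0. Without the arrays that stood apart the median was 0.26 at 28 days (8 of 10 above 0), -0.05 at 90 days (3 of 10) and 0.10 for the mean (7 of 10), beside 0.02, 0.01 and 0.01 over all genes. No member was called then either. Cyp8b1, Nr0b2 and Slc27a5 were higher at 28 days at an unadjusted p under 0.05 (2.28% of all genes), Cyp7a1 was lower at 90 days (1.75%), and in the mean Nr0b2 was higher (3.22%) and Cyp7a1 lower (2.24%). No member had an unadjusted p under 0.05 for the difference between the 90-day and 28-day effects, where limma called 0 of all genes (0%) and 1.38% had such a p.

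**Figure D1:**
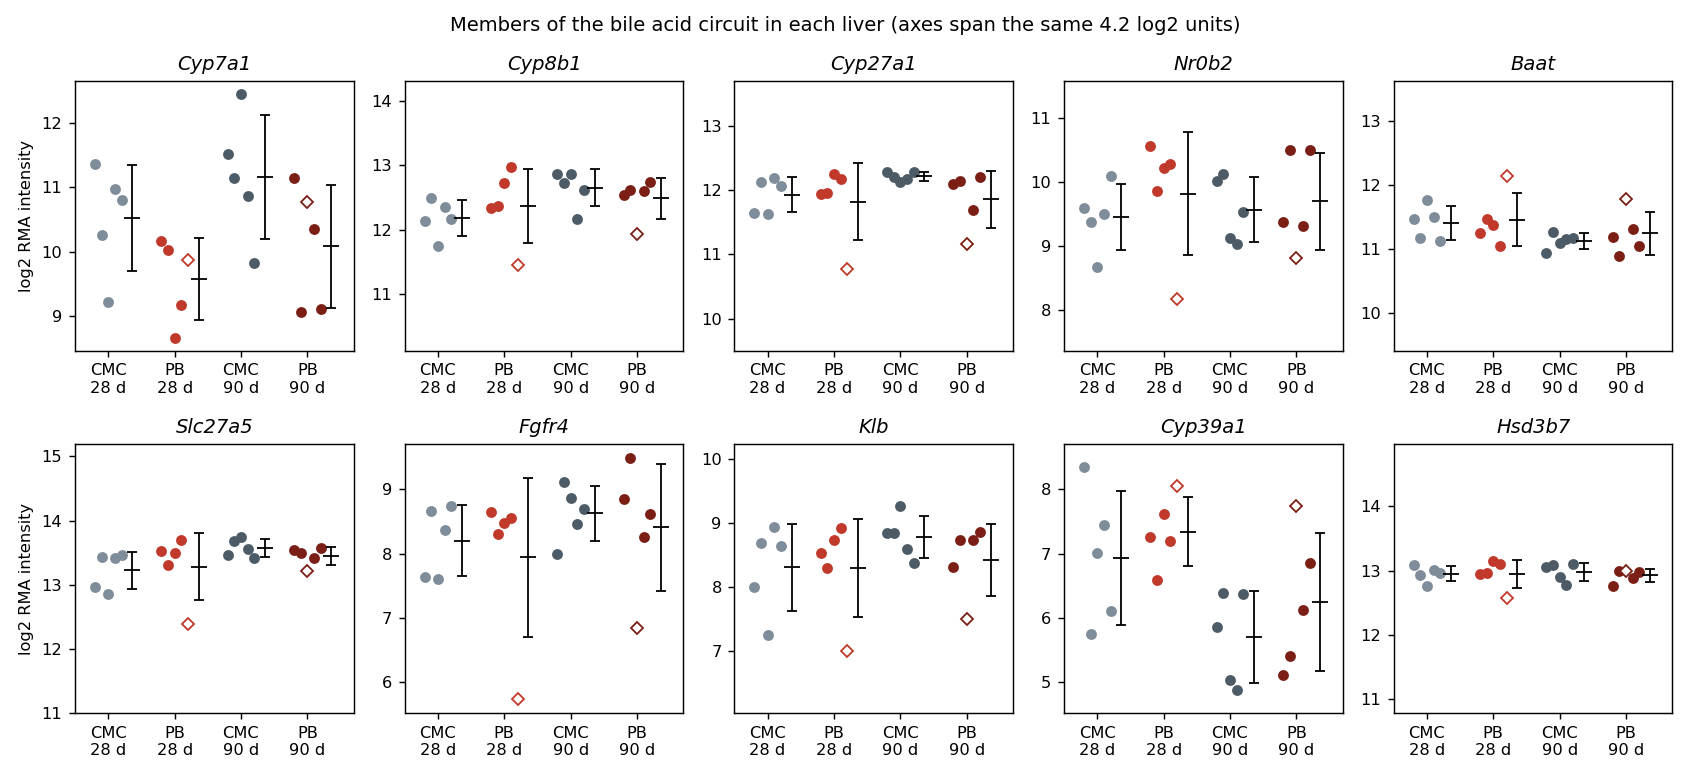
Log2 RMA intensity of the 10 members in each of the 20 livers, by group (CMC, vehicle; PB, phenobarbital), with black bars for the mean and SD of 5 mice. Open diamonds mark the pair of treated arrays that stood apart; Cyp7a1 lies lowest in the PB 28d group, and the diamonds are the lowest points of Fgfr4 and Cyp27a1 in their groups.

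Cyp7a1 had a lower mean in treated livers at both durations, with wide overlap between mice. At 28 days the vehicle livers measured 11.36, 10.25, 9.22, 10.97 and 10.80, and the treated livers 10.17, 10.02, 8.66, 9.16 and 9.86. All 5 treated livers lay below the vehicle median of 10.80, and 2 lay below all vehicle livers. The difference was -0.94 ± 0.49 log2 units (SE; 1.92-fold lower; adjusted p = 1, unadjusted 0.0694), and the exact two-sided permutation test over mice gave p = 0.0714. At 90 days the vehicle livers measured 11.52, 11.14, 12.45, 10.87 and 9.82, and the treated livers 11.14, 9.06, 10.77, 10.35 and 9.10. Here 4 of 5 treated livers lay below the vehicle median and 2 below all vehicle livers, and the difference was -1.07 ± 0.49 (2.1-fold lower; adjusted p = 0.816, unadjusted 0.0416; exact permutation p = 0.127).

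Averaged over both durations Cyp7a1 was 2.01-fold lower under phenobarbital (-1.01 ± 0.35 log2 units; 95% confidence interval -1.73 to -0.28). Its unadjusted p of 0.0089 ranked 237 among all genes tested, and the adjusted p was 0.597. The 90-day and 28-day differences themselves differed by -0.13 ± 0.70 (adjusted p = 1). In order of the group means Cyp7a1 stood at 11.16 ± 0.96 (SD, n = 5) in CMC 90d, 10.52 ± 0.83 in CMC 28d, 10.09 ± 0.96 in PB 90d and 9.58 ± 0.64 in PB 28d. Each step between neighbours in this order was smaller than the SD of at least 1 of the groups it joins. Without the pair of arrays that stood apart the mean difference was -1.13 (adjusted p = 0.601), so it did not rest on them. Of the 9 hepatocyte markers 8 also had a mean change below 0 under phenobarbital, with a median of -0.12, Apob at -0.90 ± 0.45 and none called; without those arrays 6 of 9 did, with a median of -0.02. All 7 lymphocyte markers tested had a mean change above 0, with a median of 0.15 and none called, beside 55.8% of all genes above 0. Without those arrays all 7 stayed above 0, with a median of 0.06. On all arrays 7 of 7 intestine or pancreas markers (median 0.03) and 8 of 10 endothelial markers (0.14) also lay above 0. Without the arrays that stood apart 3 of 7 and 9 of 10 did. The part of these marker lists in the difference of Cyp7a1 was not tested.

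The other probe set of Cyp7a1, 1422100_at, also had lower means in treated livers at both durations. Its vehicle values were 8.58, 7.39, 6.33, 7.96 and 8.32 at 28 days and 8.74, 7.65, 9.78, 7.81 and 7.40 at 90 days. Its treated values were 7.50, 7.12, 5.96, 6.77 and 6.57, and 7.71, 5.20, 7.95, 7.55 and 6.06. The lowest treated liver on both probe sets at 28 days was replicate 3, and the highest vehicle liver at 90 days was also replicate 3. In a fit of all probe sets singly its change was -0.93 ± 0.54 at 28 days, -1.38 ± 0.54 at 90 days and -1.16 ± 0.38 for the mean (adjusted p = 0.72). The probe sets correlated with r = 0.94 over the 20 arrays, which share mice and arrays, so they are not independent evidence.

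**Figure D2:**
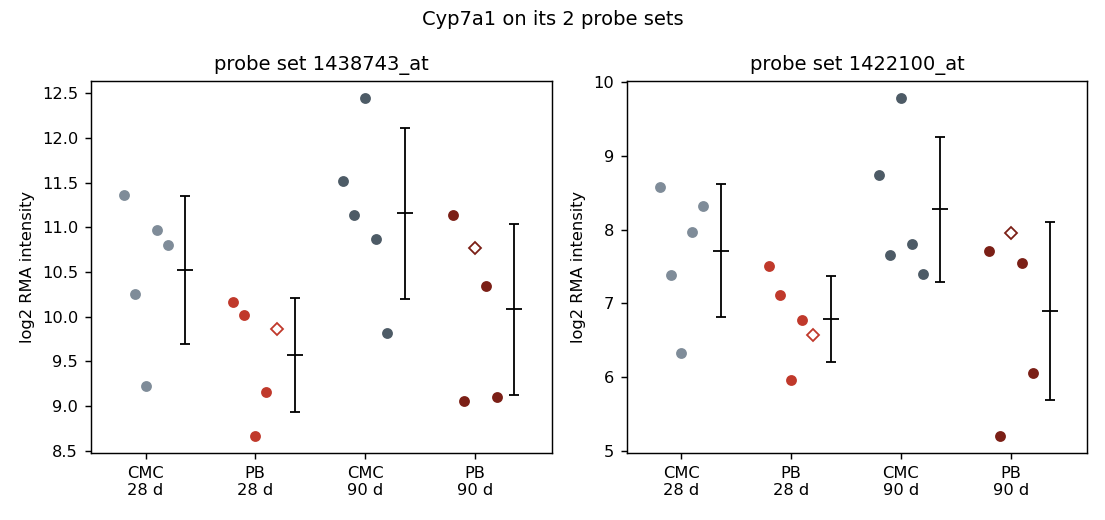
Log2 RMA intensity of Cyp7a1 in each liver on its 2 probe sets, 1438743_at (used for the gene) and 1422100_at, with the mean and SD of 5 mice per group; open diamonds mark the arrays that stood apart. On both, the treated groups have the lower means at 28 and at 90 days, and single treated and vehicle livers overlap.

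The other P450 enzymes of the pathway showed smaller differences. Cyp8b1, which directs intermediates to cholic acid, measured 12.14, 12.49, 11.75, 12.35 and 12.17 in CMC 28d and 12.34, 12.37, 12.72, 12.98 and 11.45 in PB 28d. At 90 days it measured 12.87, 12.72, 12.87, 12.17 and 12.62 in vehicle livers and 12.54, 12.62, 11.94, 12.60 and 12.74 in treated ones. The lowest treated liver was the array that stood apart in each case. The changes of Cyp8b1 were 0.19 ± 0.23 and -0.16 ± 0.23 log2 units, with a mean of 0.01 (95% confidence interval -0.32 to 0.35; adjusted p = 0.982). Without both arrays that stood apart they were 0.42 at 28 days (adjusted p = 0.973), -0.03 at 90 days (0.999) and 0.20 for the mean (0.979).

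Cyp27a1, the mitochondrial enzyme that oxidises the sterol side chain, was almost uniform in the CMC 90d livers, which measured 12.29, 12.20, 12.13, 12.18 and 12.29. The PB 90d livers measured 12.09, 12.14, 11.16, 11.69 and 12.21, and 3 of 5 lay below all vehicle livers. The difference was -0.36 ± 0.24 (adjusted p = 0.816; exact permutation p = 0.0556). It was -0.18 without the arrays that stood apart, which move this value by more than 1.5 times, and -0.11 ± 0.24 at 28 days, where their removal gave 0.15. Its second probe set, of the _x_at kind, lay below background on all 20 arrays.

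Cyp39a1, which hydroxylates oxysterols, had higher means in treated livers, with values spread over more than 1 log2 unit in each group. It measured 8.34, 5.75, 7.01, 7.45 and 6.10 in CMC 28d and 7.26, 6.59, 7.61, 7.20 and 8.05 in PB 28d. It measured 5.85, 6.38, 5.03, 4.88 and 6.37 in CMC 90d and 5.11, 5.41, 7.74, 6.12 and 6.86 in PB 90d. The changes were 0.42 ± 0.50 and 0.55 ± 0.50, with a mean of 0.48 (95% confidence interval -0.25 to 1.22; adjusted p = 0.72), and the highest treated liver was again the array that stood apart at each duration. Without these arrays the changes were 0.24 at 28 days (adjusted p = 0.973), 0.17 at 90 days (0.999) and 0.21 for the mean (0.998).

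The remaining enzymes had mean changes within 0.1 log2 units of 0. Hsd3b7, which oxidises the sterol ring after Cyp7a1 has acted, lay between 12.58 and 13.15 on all 20 arrays, and its mean change was -0.03 (95% confidence interval -0.19 to 0.13; adjusted p = 0.905). Its SD between mice of a group, 0.15 log2 units, was among the lowest 5.42% of all genes tested. Slc27a5, the ligase that activates bile acids with coenzyme A, lay between 12.39 and 13.75, with an SD of 0.31 (60.4th percentile) and a mean change of -0.04 (-0.31 to 0.24). Baat, which transfers the activated bile acid to an amino acid, lay between 10.90 and 12.14, with an SD of 0.30 (58.1th percentile) and a mean change of 0.08 (-0.20 to 0.37) and 0.14 on its other probe set. Without the arrays that stood apart these mean changes were 0.01 for Hsd3b7, 0.11 for Slc27a5 and -0.07 for Baat, so that all 3 turned sign while staying uncalled. On all arrays, a change of these 3 enzymes by more than 0.37 log2 units in the mean of both durations lay outside these intervals.

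**Figure D3:**
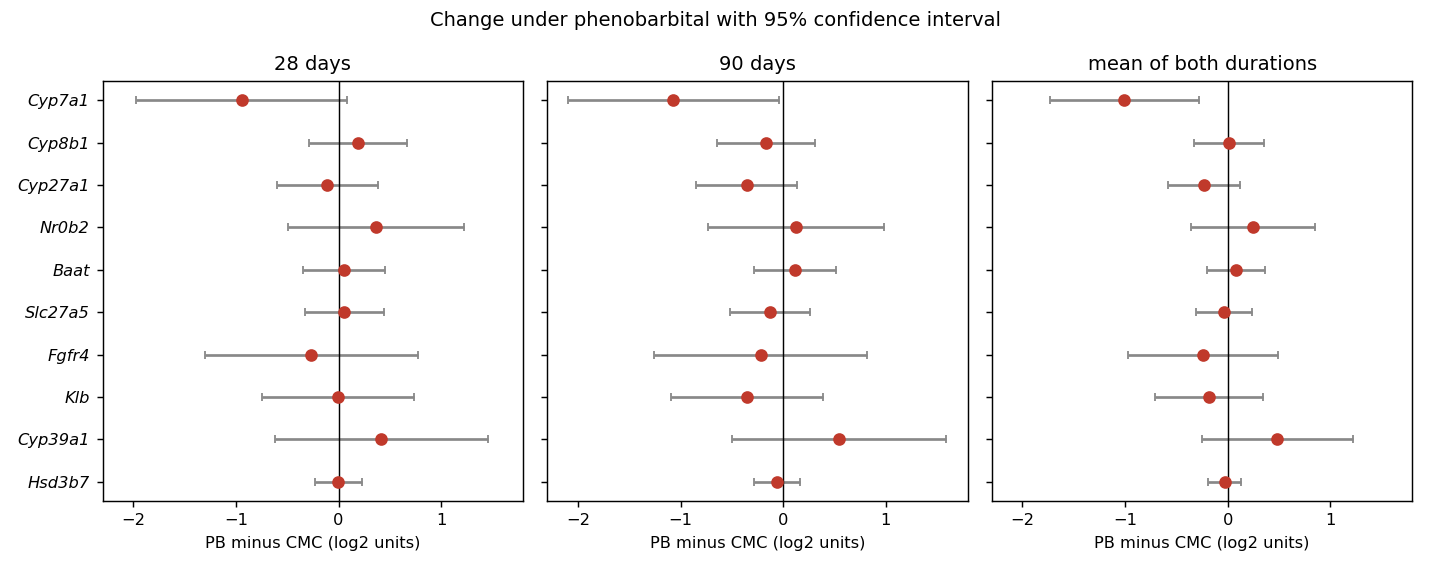
Change under phenobarbital (PB minus CMC, log2 units) for each member at 28 days, at 90 days and as the mean of both, with 95% confidence intervals from limma not adjusted for multiple testing. The interval of Cyp7a1 excludes 0 at 90 days and for the mean, those of the other 9 members include 0 in all 3 panels, and the interval of Hsd3b7 is the narrowest.

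On the feedback side, Nr0b2, which encodes the repressor SHP, lay above the vehicle median in 4 of 5 treated livers at 28 days. Vehicle livers measured 9.60, 9.38, 8.67, 9.50 and 10.09, and treated livers 10.56, 9.86, 10.22, 10.28 and 8.17. The lowest of all 10 was the array that stood apart, and 3 treated livers lay above all vehicle livers. The difference was 0.37 ± 0.41 log2 units (adjusted p = 1; exact permutation p = 0.484). It was 0.78 without the arrays that stood apart, and also not called (adjusted p = 0.973). At 90 days vehicle livers measured 10.02, 10.13, 9.12, 9.03 and 9.53 and treated livers 9.37, 10.49, 8.82, 9.31 and 10.49, a difference of 0.13 ± 0.41 (adjusted p = 0.928), or 0.35 without those arrays (0.999). For the mean of both durations Nr0b2 gave 0.25 (95% confidence interval -0.36 to 0.85), and 0.56 without those arrays (adjusted p = 0.771).

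The stretches around the transcription starts of Nr0b2 and Cyp8b1 are shown because they stand at the 2 ends of the hepatic loop, the repressor and an enzyme gene it acts on. They run from 250 bases before to 50 bases after the start and come from RefSeq on GRCm38.p6, whose table held such a stretch for 6 of the 10 members.
Nr0b2, chr4:133553126-133553425, plus strand: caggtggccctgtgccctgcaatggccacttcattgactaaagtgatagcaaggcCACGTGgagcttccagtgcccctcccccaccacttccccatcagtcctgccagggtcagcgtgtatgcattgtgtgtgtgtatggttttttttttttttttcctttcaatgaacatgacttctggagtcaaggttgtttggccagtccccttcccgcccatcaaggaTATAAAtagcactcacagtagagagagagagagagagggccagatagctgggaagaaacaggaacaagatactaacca
Cyp8b1, chr9:121916256-121916555, minus strand: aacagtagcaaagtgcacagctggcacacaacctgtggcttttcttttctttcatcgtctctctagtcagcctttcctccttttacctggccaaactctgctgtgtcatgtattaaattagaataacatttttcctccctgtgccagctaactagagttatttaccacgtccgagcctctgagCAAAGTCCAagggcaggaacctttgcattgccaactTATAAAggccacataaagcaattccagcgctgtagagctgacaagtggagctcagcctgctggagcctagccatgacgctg
Capitals mark matches to 4 motifs searched on both strands: the TATA box TATAAA, the E-box CACGTG bound by clock factors, CAAAGTCCA of HNF4 and the nuclear receptor half-site AGGTCA.

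Both stretches held a TATA box, at -28 from the start in Nr0b2 and -31 in Cyp8b1, a motif present in 13.6% of 32851 such stretches. Nr0b2 also held the E-box at -195 (7.15% of all stretches), and Cyp8b1 the HNF4 motif at -67 (0.475%). The half-site AGGTCA was in neither, against 16.3% of all. The stretches of Cyp27a1, Hsd3b7, Fgfr4 and Klb held none of the 4 motifs. These are matches of letters, and binding was not measured.

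Fgfr4 and Klb, receptor and partner for FGF15, depended on the arrays that stood apart. Fgfr4 measured 7.63, 8.66, 7.61, 8.37 and 8.74 in CMC 28d and 8.64, 8.30, 8.48, 8.55 and 5.73 in PB 28d. It measured 8.0, 9.12, 8.87, 8.46 and 8.69 in CMC 90d and 8.85, 9.49, 6.84, 8.25 and 8.62 in PB 90d. Its mean change was -0.24 ± 0.35 (adjusted p = 0.818) on all arrays and 0.23 (adjusted p = 0.988) without that pair, so its sign turned. Klb measured 8.01, 8.69, 7.25, 8.94 and 8.65 in CMC 28d against 8.54, 8.30, 8.74, 8.92 and 7.01 in PB 28d. At 90 days it measured 8.84, 8.84, 9.26, 8.59 and 8.37 against 8.31, 8.73, 7.50, 8.73 and 8.86. The mean change of Klb was -0.18 ± 0.25 (adjusted p = 0.812), and 0.10 (adjusted p = 0.998) without the pair.

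Fgfr4 had 5 probe sets, and they did not move together. The 2 named 1427777_x_at and 1427776_a_at followed the main one over the 20 arrays (r = 0.82 and 0.80). The 2 others ran against it, 1427846_x_at with r = -0.30 and 1427845_at with r = -0.78, and the latter lay above background on 10 of 20 arrays. Changes averaged over durations ranged from -0.24 to 0.17 log2 units over the 5, and none was called. The second probe set of Klb, 1426075_at, exceeded background on 0 of 20 arrays.

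Between durations 0 members were called in limma, in vehicle livers (0 of 16054 genes, 0%) and in treated livers (1 of all genes, 0.00623%). At an unadjusted p under 0.05 there was 1 member in each comparison, Cyp39a1, where 5.69% and 4.23% of all genes passed. It was lower at 90 days, as were 3.66% and 2.27% of all genes with such a p. For 0 members the 28-day and 90-day groups did not overlap, against 2.33% of all genes in vehicle and 0.635% in treated livers. The difference of Cyp39a1 was -1.23 ± 0.50 log2 units in vehicle livers (adjusted p = 0.636) and -1.10 ± 0.50 in treated livers (adjusted p = 0.971). Without the arrays that stood apart more members had an unadjusted p under 0.05 in limma between vehicle groups. Cyp8b1, Cyp27a1 and Slc27a5 were then higher (9.56% of all genes), and Baat and Cyp39a1 lower (7.97%). The removed arrays were treated ones, so the vehicle differences themselves were unchanged. In treated livers it was Cyp39a1 alone, lower (2.14%). No member was called. Averaged over treatments, a comparison added after these values were seen, Cyp39a1 was 2.24-fold lower at 90 days (-1.16 ± 0.35; unadjusted p = 0.00363, adjusted p = 0.457), where 0 of all genes were called (0%) and 10.4% had an unadjusted p under 0.05 (5.79% lower). Without the arrays that stood apart this was -1.26 (adjusted p = 0.203). Cyp8b1 was then higher at an unadjusted p under 0.05 (7.49% of all genes), and Baat and Cyp39a1 lower (7.39%), with 0 called. In the same comparison on all arrays, all 10 markers of Kupffer cells and macrophages were lower at 90 days. Their median was -0.66 against -0.02 over all genes. Their summed level ranged from 11.35 to 12.66 in the 28-day groups and from 10.90 to 12.12 in the 90-day groups, and their part in the result was not tested. Of the other 9 members 7 had a value above 0 in this average, from 0.01 for Hsd3b7 to 0.58 ± 0.35 for Cyp7a1 (adjusted p = 0.48), Baat gave -0.24 and Nr0b2 0.00, against 46.6% of all genes above 0. None of these was called. Without the arrays that stood apart Hsd3b7 turned to -0.05, and with the first principal component of all values as a covariate Cyp27a1, Fgfr4, Klb and Hsd3b7 turned to values between -0.10 and -0.03.

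Mice of the same group differed widely in some members. The SD within groups was 0.87 log2 units for Cyp39a1, 0.87 for Fgfr4, 0.86 for Cyp7a1, 0.71 for Nr0b2 and 0.61 for Klb, against a median of 0.27 over all genes tested. These members lay at the 97.8th, 97.7th, 97.5th, 94.4th and 90th percentile of that spread. With group means removed, 6 members followed the first principal component upwards: Fgfr4 (r = 0.97), Cyp27a1 (0.94), Slc27a5 (0.90), Klb (0.84), Nr0b2 (0.80) and Cyp8b1 (0.79). Baat ran against it (-0.90), as did Cyp39a1 less closely (-0.59), Hsd3b7 followed weakly (0.47), and Cyp7a1 was nearly independent of it (-0.23). These are descriptions over 20 arrays of 1 axis computed from all genes of the same arrays.

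**Figure D4:**
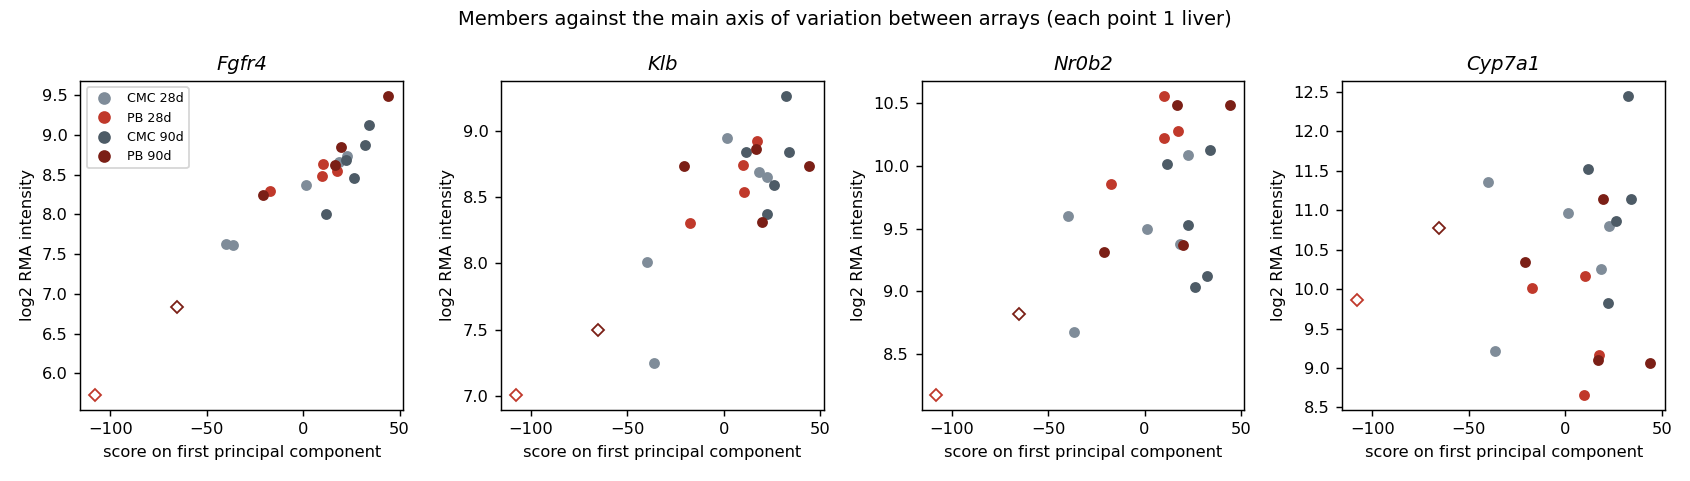
Log2 RMA intensity of Fgfr4, Klb, Nr0b2 and Cyp7a1 against the score of each array on the first principal component, coloured by group; open diamonds are PB 28d replicate 5 and PB 90d replicate 3. Fgfr4 rises along the axis with little scatter, and Cyp7a1 scatters over its whole range at similar scores.

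Across mice, Cyp7a1 did not track the other members closely enough to pass a test. With group means removed, its r with Nr0b2, which encodes its repressor, was -0.21 (rho = -0.22; permutation p = 0.382 and 0.398 over 20 mice; adjusted p = 0.84 over the 10 pairs tested). Its r with the other 8 members lay between -0.29 for Cyp27a1 and 0.15 for Baat, with adjusted p of 0.84 or more. Without the 2 mice farthest from the median of Cyp7a1 the r with Nr0b2 was -0.43, and without the arrays that stood apart it was -0.11. With the first principal component also removed, r was 0.51 with Slc27a5 and 0.44 with Klb, against 0.01 and 0.04 before, and between -0.22 and 0.15 with the other 7; these values were not tested. Fgfr4 and Klb correlated with r = 0.81 and rho = 0.62 (permutation p = 0.00207 and 0.00598; adjusted p = 0.0207 and 0.0598). Without the 2 mice farthest from the median of Fgfr4 the r was 0.58, without the arrays that stood apart 0.50, and with the first principal component also removed -0.04. The genes most like Cyp7a1 over the 20 arrays, group means removed, were Ppwd1 (r = 0.81), Sgk3 (0.80), Asrgl1 (0.78), Wdr35 (0.77) and Sh3yl1 (0.74), and the one most opposed was Bcl2l1 (-0.78).

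Genes around the circuit were taken from lists of other enzymes, regulators, transporters, sterol supply and the clock. Of 17 other enzymes of bile acid synthesis limma called 0 at 28 days, at 90 days or in the mean, where it called 0.0498%, 0.143% and 0.212% of all genes. At an unadjusted p under 0.05 there was 1, the peroxisomal Hsd17b4, lower at 90 days (-0.56, unadjusted p = 0.0341), as were 1.38% of all genes. The median mean change of the 17 was 0.00. The largest mean changes were 0.78 ± 0.41 for Cyp46a1, which makes an oxysterol in brain, -0.44 ± 0.22 for Cyp7b1, the hydroxylase of the alternative route, and 0.39 ± 0.19 for Akr1d1, a steroid reductase (adjusted p = 0.72 each). Without the arrays that stood apart 0 of these 17 were called. At an unadjusted p under 0.05, 2 were then higher at 28 days (2.28% of all genes), and 1 was higher (2.4%) and 2 lower (1.75%) at 90 days. In the mean 1 was higher (3.22%). For the difference between the 90-day and 28-day effects 5 were lower (1.3%), against 0 on all arrays. Of 26 regulators 0 were called and 0 had an unadjusted p under 0.05, where 0.212% and 6.6% of all genes did so in the mean. The list held 33 regulators, of which these 26 were measured. Their median mean change was -0.17 with 20 of 26 below 0, against 44.2% of all genes. Without the arrays that stood apart it was -0.02 with 15 of 26 below 0. At an unadjusted p under 0.05, 1 was then higher at 28 days (2.28% of all genes) and 1 in the mean (3.22%), with 0 called. Nr1h4, which encodes FXR, gave 0.04 ± 0.15, and Nr5a2, an activator of Cyp7a1, -0.20 ± 0.20. The largest were Egr1 (-0.68 ± 0.59), Prox1 (-0.67 ± 0.44) and Mafg (-0.62 ± 0.38), the last a repressor of bile acid synthesis genes.

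Among 19 transporters of bile salts and sterols 0 were called at 28 days (0.0498% of all genes), 1 at 90 days (0.143%) and 1 in the mean (0.212%). This was Abcc4 both times, an exporter of bile salts and drugs at the basolateral membrane. It rose 2.82-fold at 90 days (1.5 ± 0.27 log2 units; adjusted p = 0.014) and by 1.26 ± 0.19 in the mean (adjusted p = 0.00122), while at 28 days it gave 1.02 ± 0.27 (adjusted p = 0.634). Its group means were 5.31 and 6.33 at 28 days and 5.74 and 7.24 at 90 days, vehicle first. Its 90-day and 28-day changes differed by 0.48, which limma did not call. Without the arrays that stood apart its changes were 1.13 at 28 days (adjusted p = 0.0575) and 1.76 at 90 days (0.000232). At 28 days it was called in 1 of 34 alternatives, limma with array weights (1.13, adjusted p = 0.0358). The call in the mean held in all 33 alternatives, and the call at 90 days was lost without CMC 90d replicate 4 or 5 or PB 90d replicate 1 or 2 (adjusted p from 0.0612 to 0.0708) and when limma was given only those 10 arrays (0.146). The canalicular exporter Abcb11 gave -0.06 ± 0.26 and the importer Slc10a1 -0.11 ± 0.25 in the mean. The next largest changes of the list were 0.46 ± 0.29 for Abcc3 (adjusted p = 0.72) and -0.33 ± 0.40 for Abcc2 (adjusted p = 0.787). At an unadjusted p under 0.05 in limma, 1 of the 19 was higher at 28 days and 1 at 90 days. In the mean 2 were higher and 1 lower. Of all genes 2.86%, 4.53% and 6.6% had such a p in either direction, and 1.03%, 1.38% and 2.37% had it and were lower. Without the arrays that stood apart 5 were higher at 28 days (2.28% of all genes) and 2 at 90 days (2.4%). The 5 were Slc10a1, Slco1a4, Abcc3, Abcc4 and Ephx1. In the mean 4 were then higher (3.22%) and 1 lower (2.24%), and Slc10a1 was not among these.

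Of 12 genes of sterol supply 0 were called by limma, while 4 at 28 days, 2 at 90 days and 5 in the mean were lower at an unadjusted p under 0.05, as were 1.03%, 1.38% and 2.37% of all genes. Without the arrays that stood apart these counts were 3, 2 and 5 (1.79%, 1.75% and 2.24% of all genes). The median mean change was then -0.09 against 0.01 over all genes. The list held 16 genes, of which these 12 were measured. On all arrays their median mean change was -0.20 against 0.02 over all genes. Sqle gave -0.83 ± 0.23 (adjusted p = 0.366), Hmgcs1 -0.60 ± 0.15 (0.257) and Lss -0.58 ± 0.18 (0.533). Cholesterol is the substrate of Cyp7a1. Of 17 clock genes 0 were called and 1 was lower at an unadjusted p under 0.05 in the mean, as were 2.37% of all genes. This was Per2 (-0.85 ± 0.37, adjusted p = 0.72). Without the arrays that stood apart Per2 no longer had such a p, and the 1 gene lower with it was Per3 (2.24% of all genes). The median of the clock list was -0.21, with 11 of 17 below 0 (44.2% of all genes), and -0.16 with 12 of 17 below 0 without the arrays that stood apart. Dbp, an activator of Cyp7a1 with a daily rhythm, gave -0.71 ± 0.81. The part of these genes in the level of Cyp7a1 was not tested.

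**Figure D5:**
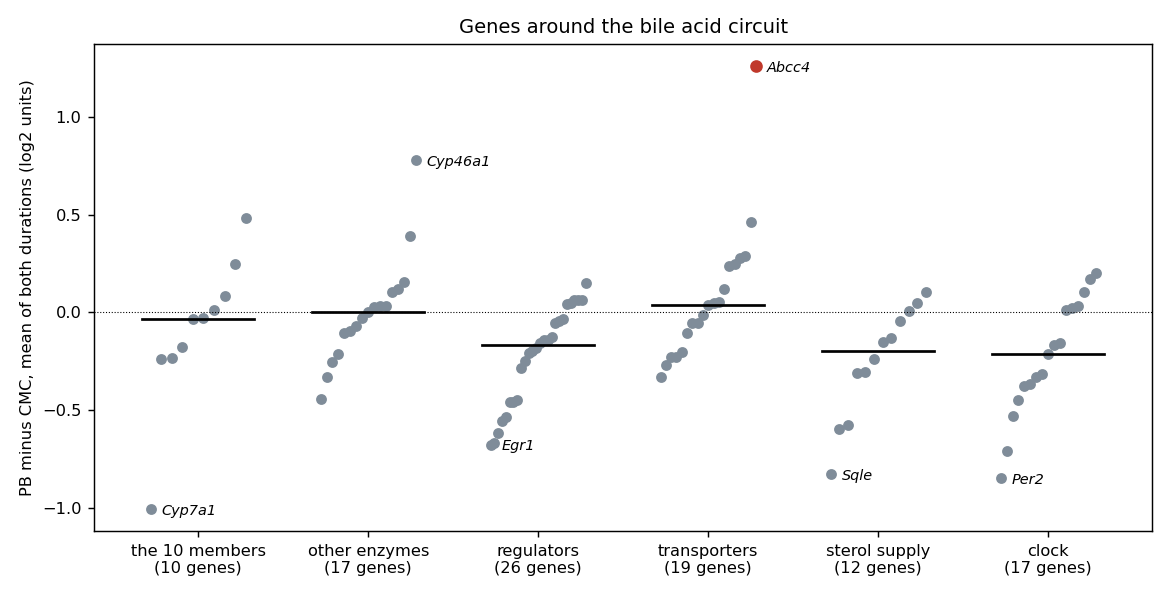
Change under phenobarbital (PB minus CMC, mean of both durations, log2 units) of each tested gene in the 10 members and 5 lists, sorted within a list; red marks a gene called in limma over all genes, black lines are medians, and the gene with the largest change of each list is named. Abcc4 is the 1 gene called, and Cyp7a1 has the lowest value shown.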

How the data were processed

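The authors deposited log2 signal intensities made with RMA, per the submitters' processing notes; its version is not given in the sources used here. RMA compresses differences near background and saturation. The values were used as deposited. The members and lists were chosen with earlier results of these data known.

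Groups came from sample titles. The probe set with the highest mean stood for a gene. Of 45037 probe sets 34945 had 1 symbol in the platform annotation. A gene was tested if it exceeded the array's 25th percentile (3.96 to 4.26) on at least 5 arrays. A model with 1 mean per group was fitted in limma 3.58.1 (R 4.3.3), with an intensity trend and 16 residual degrees of freedom; it was tested on simulated data. Tests were two-sided. Exact permutation tests used all 252 assignments of 10 arrays, where the smallest p is 0.00794; adjusted over all genes, the lowest was 1 at 28 days and 0.716 at 90 days. Correlations used 100000 permutations within groups in Python 3.11.15. Precision is limited by the number of arrays.

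Named genes were all members, Cyp2b10 and Cyp2c55, called genes of the lists, the 3 largest mean changes of each list that is not of markers, and the 5 genes most like Cyp7a1. Nr1h4, Nr5a2, Abcb11, Slc10a1, Slco1a4, Ephx1, Hsd17b4, Per3, Bcl2l1, Apob, S100a9 and Mmp8 were chosen after their values were seen. The labels do not state that replicate numbers pair mice, and no pairing was used. Between arrays of the same number 9 of 30 correlations of deviations exceeded 0.1, the lowest being -0.69. As 1 component held 57.3% of the variance within groups, they cannot show whether numbers shared handling. The alternatives were other ways to combine probe sets, filters, variance priors, weights, scalings, a replicate block, a principal component as covariate and removal of arrays.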

Additional observations from a re-analysis of the deposited data

Results flagged for a closer look

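In 3 of 40 combinations of member and group, 1 liver lay far from the other 4, by a test of the gap that chance exceeds in about 1 of 20 groups. Fgfr4 was 5.73 in PB 28d replicate 5, against 8.30 in the next liver. Cyp27a1 was 10.78 in the same liver, against 11.94. Cyp8b1 was 11.94 in PB 90d replicate 3, against 12.54. These are the 2 arrays that stood apart on the first principal component.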

How the results depend on the processing

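Of 2350 values of members recomputed under alternatives, 2169 kept their direction and their side of the threshold, 168 that were not called changed sign, and 13 became called. All 13 came from the planned covariate, the first principal component of group-centred values. By construction it leaves the group means as they are and lowers the residual spread. It gave 1 member called at 90 days and 1 in the mean of both durations, both times Cyp27a1 (-0.36, adjusted p = 0.0238, and -0.23, 0.0313). Of all genes it called 1032 at 90 days and 1275 in the mean, against 23 and 34 in the main fit. It gave 6 members called between vehicle groups and 5 between durations averaged over treatments. The component of all values, which was added after the data were seen and can change group means, gave 0 in each comparison. Removing any 1 of the 20 arrays gave 0 members called in each comparison, as did the other alternatives. Cyp7a1 stayed lower in the mean of both durations in all 33 alternatives, from -1.17 to -0.85 (adjusted p from 0.065 to 0.88). The 0.065 came from that planned covariate, and the next lowest, 0.261, from the component of all values. Without the arrays that stood apart, Fgfr4, Klb, Slc27a5, Baat and Hsd3b7 changed sign in the mean of both durations, none of them called. The r of Fgfr4 with Klb turned to -0.0445 with the first principal component removed; the cause was not tested. With the replicate block the mean change of Cyp7a1 was -1.01 (adjusted p = 0.754), and 0 members were called. The labels do not state that the numbers pair mice, and 4 of 20 arrays lay closest to an array with their own number. Centring on the 75th percentile moved the median of all genes between vehicle groups from -0.03 to -0.15. The spread between 5 mice per group limits all comparisons.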
